A study of Mus musculus with 6 samples.

Results

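The genes described here encode the eukaryotic translation initiation factors, the proteins that bring the ribosome, the initiator methionyl tRNA and the mRNA together before protein synthesis starts. They were taken by symbol as all genes named Eif followed by 1 to 6, leaving out the Eif2ak kinases, the sex-linked pair Eif2s3x and Eif2s3y, and pseudogenes. This gave 49 of the 22969 genes in the count table: 5 of eIF1, 9 of eIF2, 14 of eIF3, 16 of eIF4, 4 of eIF5 and 1 of eIF6. RNA came from hematopoietic stem cells (LSKCD150+CD48-) that had been sorted from the bone marrow of adult C57BL/6 mice, about 500 cells for each library, and was sequenced after Smart-seq2, a full-length cDNA method with PCR amplification. Control mice carried Rbfox2-fl/fl without Cre, and the other mice were Vav1-cre; Rbfox2-fl/fl. Both groups share the floxed allele and only the second carries the transgene, whose Vav1 promoter drives Cre in blood cells in general and not in stem cells alone. The series asks how Rbfox2, an RNA-binding regulator of splicing, bears on stem cell self-renewal and protein homeostasis.

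As background, eIF1 and eIF1A bind the small ribosomal subunit and keep it open for scanning, and eIF3 is the large scaffold that holds the pre-initiation complex together. The eIF2 trimer delivers the initiator tRNA and is recharged with GTP by the exchange factor eIF2B. The eIF4F complex joins the cap-binding protein eIF4E, the scaffold eIF4G and the helicase eIF4A, and the 4E-BP proteins block it by holding eIF4E. eIF5 stimulates GTP hydrolysis on eIF2, eIF5B joins the large subunit, eIF5A acts mainly in elongation despite its name, and eIF6 keeps the large subunit from joining too early. Blood stem cells are known for a low rate of protein synthesis compared with other marrow cells.

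Before the factors are compared, the libraries themselves need a description. Control libraries held 47895459 to 55151484 counts and the other libraries 23474895 to 35650284. The chi-square per degree of freedom between controls 1 and 3 was 3.44, against 156.2 to 808.1 for every other pair, so controls 1 and 3 were summed and counted as 1 sample, called the pooled control below. That leaves 2 control samples against 3. Rbfox2 had 238, 11 and 250 counts in controls 1 to 3 and 2, 87 and 10 counts in the libraries labelled Rbfox2-deleted, so it goes against the labels of control 2, which was low, and of the second deleted library, which was the highest of its group. Groups are therefore named by label, as deleted 1, deleted 2 and deleted 3. Which exon was removed is not known from the sources used here, so the gene count is an incomplete check. Xist had 2821 and 2467 counts in deleted 1 and deleted 3 and 3 to 55 in the other libraries. The level of 10 genes of the stem cell gate summed to 1736 and 1787 CPM (counts of a gene relative to the library total, here without further scaling) in the control samples and 1308 to 1887 in the deleted ones. Cd48, which the sort excludes, was at 0 in every sample except deleted 3, with 0.090 CPM. Together with Cd34 and Flt3, which mark cells downstream of the stem cells, it summed to 99.95 and 49.9 CPM in the control samples against 80.4, 156 and 171, mostly Cd34. Sums of 5 megakaryocyte markers were 279 and 285 CPM in the control samples against 44.0, 145 and 256 in deleted 1 to 3, and sums of 5 erythroid markers were 102 and 149 against 330, 109 and 207. Further lists summed to 1961 and 2901 against 1695 to 1929 CPM for myeloid cells, mostly Lyz2 and Prtn3 with Mpo at 0.84 CPM or less, to 67.5 to 99.8 CPM for T and NK cells, almost all Nkg7, and to 8.42 to 32.7 CPM for endothelium and stroma, mostly Pecam1. Cd79b, a B cell receptor gene, stood at 319 and 211 CPM in the control samples and at 178, 138 and 192 in deleted 1 to 3, all below control, while Cd79a, Ms4a1 and Ebf1 stood at 0.150 CPM or less. Their part in the results below was not tested.

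The factors took a similar share of the RNA in every library, 1.20% to 1.29% of all counts. Of the 49 genes, 48 were detected in each library except deleted 1, where 46 were, since Eif4ebp3 and Eif5a2 had 0 counts there. At the depth of deleted 1 a count of 0 allows up to 3 counts, or 0.128 CPM of the unscaled total, which covers counting error only. Eif4e1b, a cap-binding paralogue known from oocytes, had 0 counts in all 6 libraries and was not tested, so 48 genes passed the filter on low counts.

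Levels of the factors are given from here on as CPM scaled by TMM, a factor that adjusts each library total for its composition. No factor passed the edgeR test with all samples in. edgeR called 0 of 48 factors and 0 of 12350 genes at an adjusted p of 0.05 (0.0%), and the smallest adjusted p, shared by several factors, was 0.387. At an unadjusted p under 0.05 it counted 11 factors, or 22.9%, where 9.89% of all genes and 13.7% of the 7201 genes with a mean of at least 10 CPM stood there. Of the factors, 46 reached that mean. The 11 were 7 higher and 4 lower in the deleted libraries, beside 5.33% and 4.56% of all genes. With upper-quartile scaling, which moved the median log2 fold change of all genes from 0.11 to -0.20, they were 10 (11.5% of all genes), 2 higher and 8 lower, of which 6 were the same. DESeq2 called 1 factor of 48, Eif3b, which was higher, or 2.08%, beside 3.39% of the 14100 genes it gave an adjusted p (1.68% higher and 1.71% lower). In 20 factors, or 41.7%, the control and the deleted samples did not overlap, 13 higher and 7 lower, against 32.0% of all genes (14.9% higher and 17.2% lower) and 39.1% of the genes with a mean of at least 10 CPM. The common dispersion across genes corresponded to a coefficient of variation of 104% between samples of a group. In bulk RNA such as this, fewer cells with a transcript and less of it per cell cannot be told apart.

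The factors as a whole lay close to the rest of the transcriptome, and their groups did not lie together. The log2 fold change is always deleted minus control on the CPM scale. It was above 0 in 28 of 48 factors (58.3%, against 53.5% of all genes), with a median of 0.25 against 0.11 for all genes. Of the genes with a mean of at least 10 CPM, 59.3% lay above 0, with a median of 0.26. With upper-quartile scaling 23 factors lay above 0. Of the eIF2 genes 8 of 9 lay above control, with a median of 0.89, and of the eIF1 genes 1 of 5, with a median of -0.34. Over the 18 alternatives the eIF2 median ran from 0.55 to 1.03 and the eIF1 median from -0.79 to -0.30. The other medians were 0.11 for eIF3, with 8 of 14 above control, 0.45 for eIF4, with 9 of 15, and -0.01 for eIF5, with 2 of 4, and Eif6 itself lay at -0.15. Each of these 4 changed sign in at least 1 alternative, eIF4 only without deleted 1, at -0.0091. The median size of the change, whatever its sign, was 0.60 for the factors, against 0.33 for the difference between the 2 control samples, and 32 of 48 factors differed more between groups than between the controls. For all genes these medians were 0.83 and 0.54, and the matching count was not made.

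**Figure D1:**
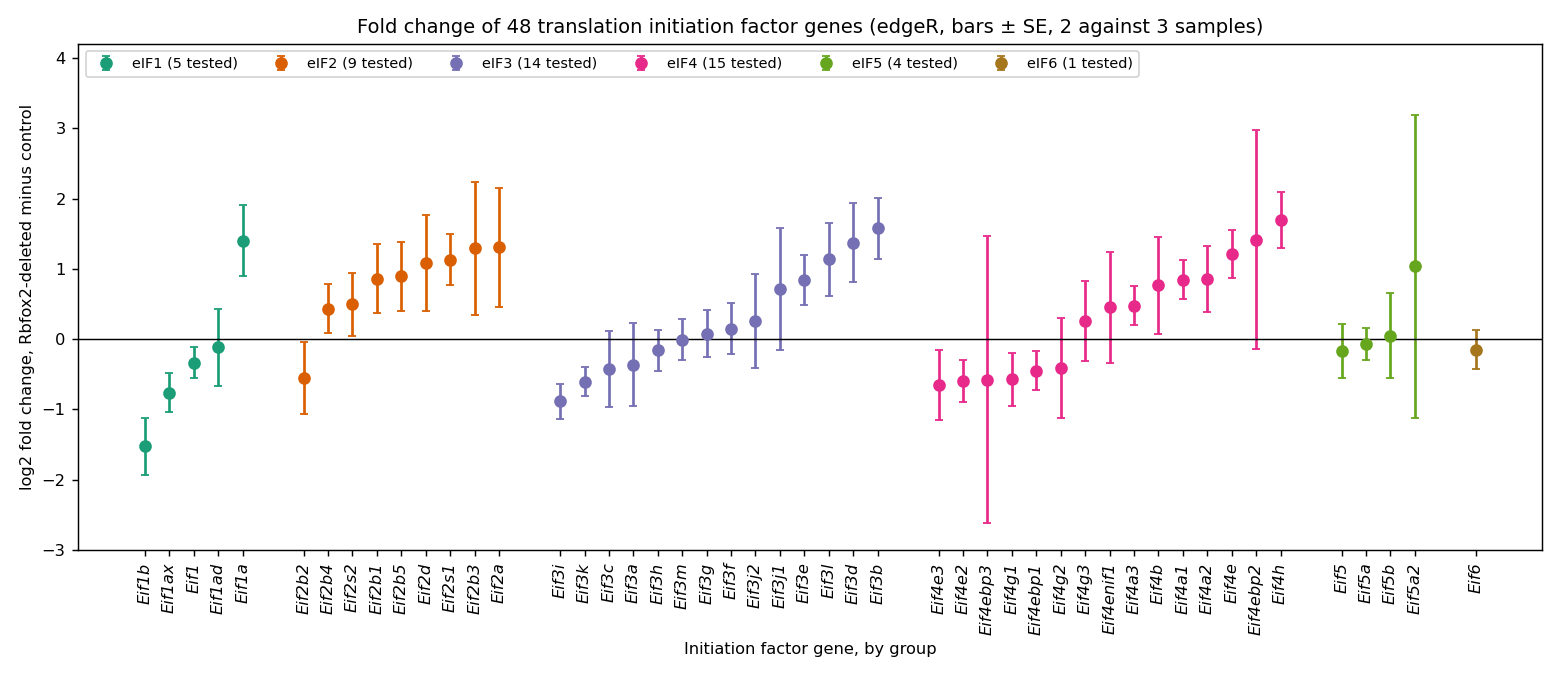
Log2 fold change (vertical axis, deleted minus control) of the 48 factors tested, ordered by group along the horizontal axis, with bars of ± 1 SE from edgeR over 2 control and 3 deleted samples. Values run from -1.52 for Eif1b to 1.69 for Eif4h, 8 of the 9 eIF2 genes lie above 0, and 4 of the 5 eIF1 genes lie below it.

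The deleted libraries did not all move by the same amount. Against the control mean, the median of all factors was 0.40 in deleted 1, -0.0049 in deleted 2 and 0.0011 in deleted 3, while the median of all genes was -0.52, -0.0019 and 0.082 and that of the genes with a mean of at least 10 CPM was 0.24, 0.053 and 0.040. The eIF2 median was above 0 in each of them, at 1.002, 0.56 and 1.01, and the eIF1 median below 0, at -0.21, -0.56 and -0.84. The eIF3 medians were 0.088, -0.026 and 0.041 and the eIF4 medians 0.61, 0.13 and 0.12, so the eIF4 median was above 0 mostly through deleted 1. The eIF5 medians were 0.19, -0.19 and -0.44. All 3 deleted libraries agreed in sign for 25 of 48 factors (52.1%, against 43.4% of all genes). In 14 factors deleted 1 lay on the other side of control from deleted 2 and deleted 3, a count not made for all genes.

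**Figure D2:**
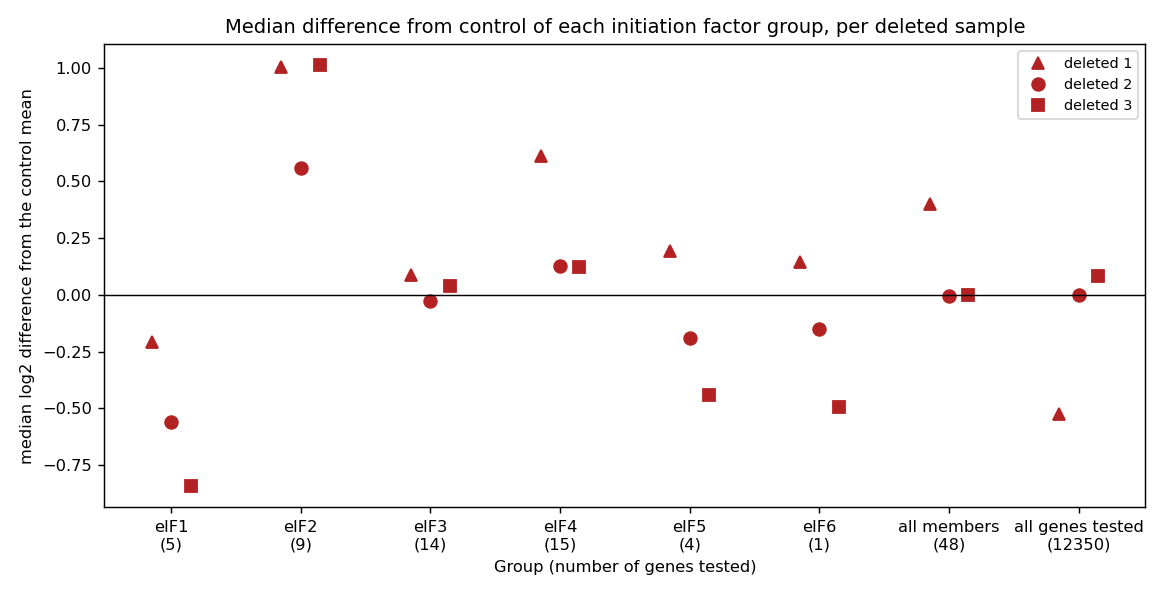
Median log2 difference from the control mean (vertical axis) of each factor group, of all factors and of all genes tested (horizontal axis, numbers of genes in brackets), with 1 point for each deleted library. The eIF2 points lie at 0.56 to 1.01 and the eIF1 points at -0.84 to -0.21, while the other groups span or touch 0, except eIF4 at 0.12 to 0.61.

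The number of factors called turned on deleted 1, the shallowest library. Deleted 1 also had 14154 genes detected, against 15950 to 17087 in the others. Its rank correlation with the other libraries was 0.774 to 0.777, against 0.895 to 0.963 between the remaining pairs. Which of these traits matters here was not tested. Without it edgeR still called 0 factors, the smallest adjusted p being 0.064, but 21 factors (43.8%) stood at an unadjusted p under 0.05, against 23.7% of all genes. DESeq2 without it called 19 of 48 factors (39.6%), 10 higher and 9 lower, beside 18.8% of 12895 genes, 9.30% higher and 9.49% lower. The 10 higher were Eif2s1, Eif2b5, Eif2d, Eif3b, Eif3e, Eif3l, Eif4a1, Eif4a2, Eif4e and Eif4h, and the 9 lower were Eif1b, Eif1ax, Eif1ad, Eif3c, Eif3i, Eif3k, Eif4e3, Eif4ebp1 and Eif5b. DESeq2 called 0 factors without deleted 2 (2.39% of all genes), without deleted 3 (3.31%), without control 2 (0.574%) and without the pooled control (1.02%). By edgeR, 8 factors stood at an unadjusted p under 0.05 without deleted 2 (7.45% of all genes) and 8 without deleted 3 (9.21%). Without control 2 there were 5 (3.49%), and without the pooled control 4 (4.27%). With the presence of Xist as a covariate the group difference rests on deleted 2 alone. Both control samples and deleted 2 were low in Xist, and deleted 1 and deleted 3 were high. The 11 factors at an unadjusted p under 0.05 with all samples then had log2 fold changes from -1.31 for Eif1b to 2.07 for Eif4h.

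Among the factors of scanning and start-codon choice, Eif1b stood lowest. Eif1b, a close paralogue of Eif1, lies at chr9:120492232-120495330 on the plus strand of mm10, where its exons overlap those of the antisense gene D830035M03Rik. Its level was 374 CPM in the pooled control and 375 in control 2, against 71.5, 151 and 168 in deleted 1 to 3. Every deleted library was therefore below both control samples, and deleted 1 lay lowest. The mean was 375 ± 0.902 CPM (SD, n = 2) in the control samples and 130 ± 51.5 (SD, n = 3) in the deleted ones, a log2 fold change of -1.52 (SE 0.40), with an edgeR adjusted p of 0.387. With the length trend of each library taken out, the log2 fold change was -0.85 and Eif1b no longer stood at an unadjusted p under 0.05. Whether the count used strand is not stated, so reads of Eif1b and its antisense neighbour may have been counted together.

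Eif1, the paralogue that guards start-codon choice, differed less. It stood at 505 and 501 CPM in the control samples and at 435, 369 and 389 in deleted 1 to 3. The groups did not overlap, with a log2 fold change of -0.34 (SE 0.22) and an edgeR adjusted p of 0.745. Per kb of merged exons, Eif1 was at 0.723 and 0.715 of Eif1b in the control samples and at 3.27, 1.31 and 1.24 times Eif1b in deleted 1 to 3. Per kb of the longest transcript, Eif1 was the higher of the pair in the control samples too, at 543 ± 41.1 against 517 ± 35.0 (SD, n = 2), so which of them is higher in control depends on the length used.

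The 2 genes for eIF1A, which helps eIF1 hold the scanning ribosome open, lay in opposite directions. Eif1a stood at 34.8 and 60.6 CPM in the control samples and at 185, 94.9 and 97.9 in deleted 1 to 3, all above control, with a log2 fold change of 1.40 (SE 0.51). Eif1ax, the X-linked copy at chrX:159372178-159389928 on the plus strand, stood at 219 and 271 against 165, 133 and 136 CPM, all below control, with a log2 fold change of -0.76 (SE 0.28). Their edgeR adjusted p values were 0.459 and 0.462. The coding regions of this pair are closely alike, and the labels do not say how reads matching both were counted, so the split between them is uncertain. Eif1ad, a protein with an eIF1A-like domain, overlapped between groups, at 138 and 126 against 211, 89.6 and 64.5 CPM.

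The eIF2 trimer and its exchange factor were the group with the highest median. Eif2s1, the alpha subunit on which stress kinases act, lies at chr12:78861819-78887010 on the plus strand. It stood at 86.9 and 59.8 CPM in the control samples and at 144, 191 and 145 in deleted 1 to 3, so that all deleted libraries lay above both controls. Its log2 fold change was 1.13 (SE 0.36) with an edgeR adjusted p of 0.413, and it stayed between 0.81 and 1.39 over the alternatives tried. Eif2s2, the beta subunit, stood at 105 and 138 CPM against 262, 116 and 136, with only deleted 1 above both controls, and its log2 fold change was 0.50 (SE 0.45).

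The exchange factor subunits of eIF2B did not move as a unit. Eif2b5, the catalytic epsilon subunit, stood at 42.4 and 45.1 CPM in the control samples and at 51.9, 89.9 and 102 in deleted 1 to 3, all above control, with a log2 fold change of 0.89 (SE 0.49) and an edgeR adjusted p of 0.662. Eif2b1, the alpha subunit, stood at 104 and 45.1 against 157, 95.5 and 154 CPM, where deleted 2 lay between the 2 controls. Eif2b4, the delta subunit, was the other one without overlap, at 76.1 and 95.5 against 119, 126 and 103 CPM. Eif2b3, the gamma subunit, had a fold change carried by 1 library, with 356 CPM in deleted 1 beside 75.3 and 38.2 in the other deleted libraries and 54.7 and 73.2 in the controls. Without deleted 1 its log2 fold change turned from 1.29 to -0.19. Eif2b2, the beta subunit, was the eIF2 gene below control, at 225 and 188 against 212, 149 and 62.0 CPM.

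The 2 non-canonical tRNA carriers of the group, Eif2a and Eif2d, also lay above control on average. Eif2a stood at 9.67 and 12.7 CPM against 40.8, 17.2 and 24.9, without overlap. Eif2d stood at 42.8 and 44.8 against 31.5, 142 and 105 CPM, with deleted 1 below and the other libraries well above both controls. In all 18 alternatives 7 or 8 of the 9 eIF2 genes lay above control. The group also took a larger part of the per-length factor total in the deleted libraries, 7.77%, 6.97% and 6.43% against 5.76% and 4.64% in the control samples. The eIF1 genes took 8.81%, 9.44% and 10.7% against 15.2% and 14.2%. That eIF1 difference lay mostly in Eif1b, whose per-length level was 115, 306 and 379 against 633 and 575. For Eif1, the other abundant gene of that group, it was 375, 401 and 472 against 458 and 411.

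The eIF3 complex contained the factor that DESeq2 called with all samples and 2 of the 4 lower factors at an unadjusted p under 0.05. Eif3b, a core scaffold subunit at chr5:140419328-140443360 on the plus strand, stood at 31.7 and 34.2 CPM in the control samples and at 99.2, 117 and 79.7 in deleted 1 to 3. All deleted libraries lay above both controls, by more than the spread within either group. The mean was 33.0 ± 1.77 CPM (SD, n = 2) in the control samples and 98.5 ± 18.5 CPM (SD, n = 3) in the deleted ones, 2.99 times as high. It rose by DESeq2, with an adjusted p of 0.029, but not by edgeR, with a log2 fold change of 1.58 (SE 0.43) and an adjusted p of 0.387. The DESeq2 call was lost without deleted 2 (adjusted p = 0.652), without deleted 3 (0.462) and without control 2 or the pooled control (1 in both), and it held without deleted 1 (0.00036).

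Eif3i and Eif3k lay in the opposite direction. Eif3i, the WD-repeat subunit that binds Eif3b, lies at chr4:129591960-129600648 on the minus strand and stood at 579 and 501 CPM in the control samples and at 262, 340 and 274 in deleted 1 to 3. Eif3k, a peripheral subunit at chr7:28971372-28981864 on the minus strand, stood at 927 and 937 against 631, 634 and 574 CPM. Neither gene overlapped between groups, and the 3 deleted libraries lay close together in both. The log2 fold changes were -0.89 (SE 0.24) for Eif3i and -0.60 (SE 0.21) for Eif3k, with edgeR adjusted p values of 0.387 and 0.434. Eif3l, which pairs with Eif3k in the complex, went the other way on average, at 87.9 and 71.1 CPM against 87.5, 174 and 262, with deleted 1 at the level of the controls.

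Of the other eIF3 genes, Eif3d, a subunit with its own cap-binding activity, was the remaining factor at an unadjusted p under 0.05 and is named for that value. It stood at 113 and 65.6 CPM against 392, 160 and 141, without overlap, with a log2 fold change of 1.37 (SE 0.56) and an edgeR adjusted p of 0.503, and its exons overlap the antisense gene Gm17638. Without deleted 1 its log2 fold change was 0.74, and it was the factor of the 11 that then left an unadjusted p under 0.05. Eif3a, the largest scaffold subunit, stood at 43.5 and 36.8 against 24.2, 35.4 and 34.1 CPM, below control without overlap. Deleted 2 and deleted 3 lay close to control 2, and the log2 fold change was -0.36 (SE 0.58). Eif3c, another core subunit, overlapped, at 189 and 248 against 284, 121 and 83.3 CPM, with deleted 1 apart from the other deleted libraries. Eif3f, Eif3g, Eif3h and Eif3m had log2 fold changes between -0.16 and 0.14. Eif3e stood at 202 and 121 against 232, 275 and 359 CPM, without overlap. Eif3j1 and Eif3j2, closely alike copies of the loosely bound subunit, had log2 fold changes of 0.71 and 0.25.

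Levels of the eIF3 genes were unequal although the proteins join in one complex. Levels between genes are compared here as counts per kb of merged exons, scaled to the same total in every sample, which takes out length. Eif3g was highest at 653 ± 9.31 (SD, n = 2) in the control samples and 809 ± 141 (SD, n = 3) in the deleted ones, followed by Eif3k at 627 ± 38.9 and 500 ± 66.4. Eif3a was at 8.37 ± 1.56 and 8.05 ± 2.66, and Eif3b at 17.8 ± 0.289 and 64.5 ± 13.3. Without the loosely bound Eif3j genes, the highest gene stood 69.1 and 90.7 times above the lowest in the control samples and 189, 88.5 and 66.9 times in deleted 1 to 3. Smart-seq2 primes from the poly(A) tail, and merged exons include ends that a cell need not use, so these ratios are not protein stoichiometry.

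**Figure D3:**
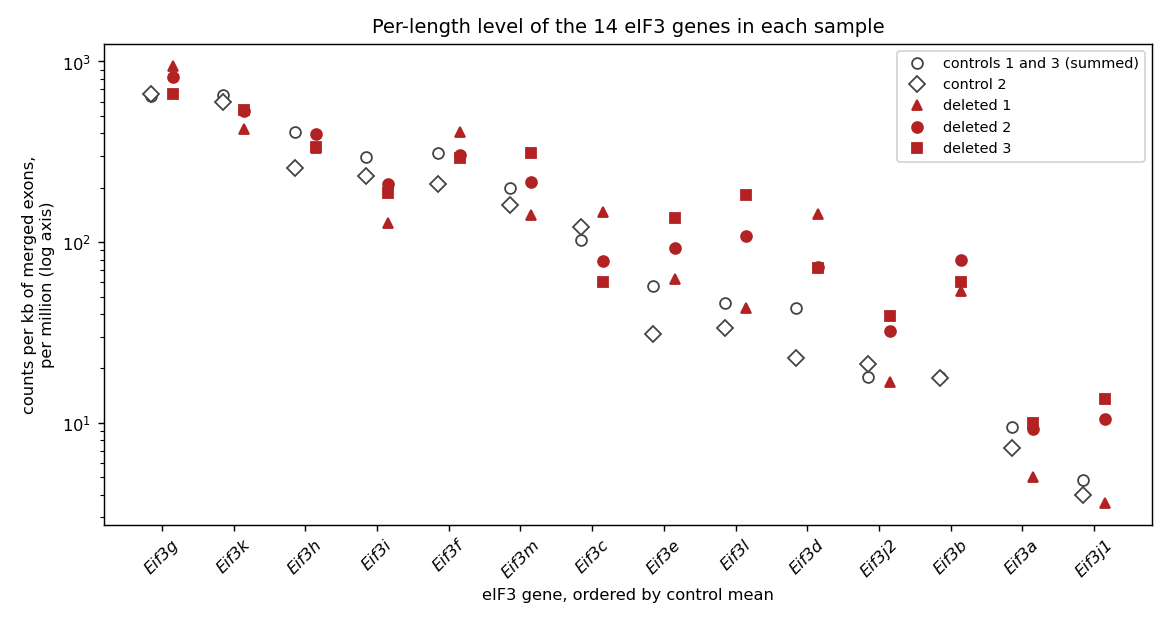
Per-length level of the 14 eIF3 genes (vertical axis, scaled counts per kb of merged exons, log axis) in the 2 control samples (open grey) and the 3 deleted libraries (red), ordered by control mean along the horizontal axis. Levels run from Eif3g, near 653 in control, to Eif3j1, at 4.41, and the deleted points of Eif3b all stand above its control points.

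The eIF4 group held the highest fold change of all factors tested. Eif4h, which stimulates the helicase eIF4A, lies at chr5:134619721-134639490 on the minus strand and stood at 82.8 and 78.1 CPM in the control samples and at 163, 338 and 281 in deleted 1 to 3. Every deleted library lay above both controls, deleted 1 by the least. The mean was 80.5 ± 3.32 CPM (SD, n = 2) against 260 ± 89.4 (SD, n = 3), 3.24 times as high, with a log2 fold change of 1.69 (SE 0.40). The adjusted p was 0.387 by edgeR and 0.0902 by DESeq2. Over the alternatives its log2 fold change ran from 1.40 to 2.07.

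Eif4e, the cap-binding protein itself at chr3:138526179-138559696 on the plus strand, stood at 90.6 and 79.7 CPM in the control samples and at 147, 216 and 227 in deleted 1 to 3, all above control. Its log2 fold change was 1.21 (SE 0.34), with an edgeR adjusted p of 0.387. Eif4e2, a relative that binds the cap weakly and acts in repression, lay the other way at 199 and 250 against 166, 119 and 162 CPM, without overlap, with a log2 fold change of -0.59 (SE 0.30) and an adjusted p of 0.614. Eif4e3, a further cap-binding relative, stood at 245 and 283 CPM against 286, 95.6 and 123, so deleted 1 stood with the controls. Eif4ebp1, the mTOR-regulated inhibitor of Eif4e, overlapped between groups at 449 and 584 against 467, 331 and 337 CPM.

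The helicase genes both lay above control. Eif4a1, at chr11:69666936-69672423 on the minus strand, stood at 233 and 304 CPM in the control samples and at 525, 388 and 534 in deleted 1 to 3, and Eif4a2 at 47.4 and 48.1 against 66.1, 73.3 and 119. No deleted library overlapped the controls in either gene. The log2 fold change was 0.85 for both (SE 0.28 and 0.47), with edgeR adjusted p values of 0.415 and 0.660. Exons of Eif4a2 overlap the small nucleolar RNA genes Snora81 and Snord2 and the antisense gene Rfc4, so its count is uncertain. Eif4a3, the helicase of the exon junction complex, stood at 170 and 148 against 242, 230 and 189 CPM.

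The scaffold Eif4g1, which bridges Eif4e and eIF3, overlapped between groups at 178 and 303 against 145, 127 and 213 CPM, with a log2 fold change of -0.57 (SE 0.38). Eif4g2, which lacks the Eif4e site, and Eif4g3 lay at -0.41 and 0.25, both with overlap. Eif4b, Eif4enif1 and Eif4ebp2 varied by more within a group than between groups. Eif4ebp2 ran from 2.67 to 65.0 CPM among the deleted libraries and stood at 16.3 and 2.97 in the controls, and Eif4ebp3 ran from 0 to 5.15 CPM over all samples.

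**Figure D4:**
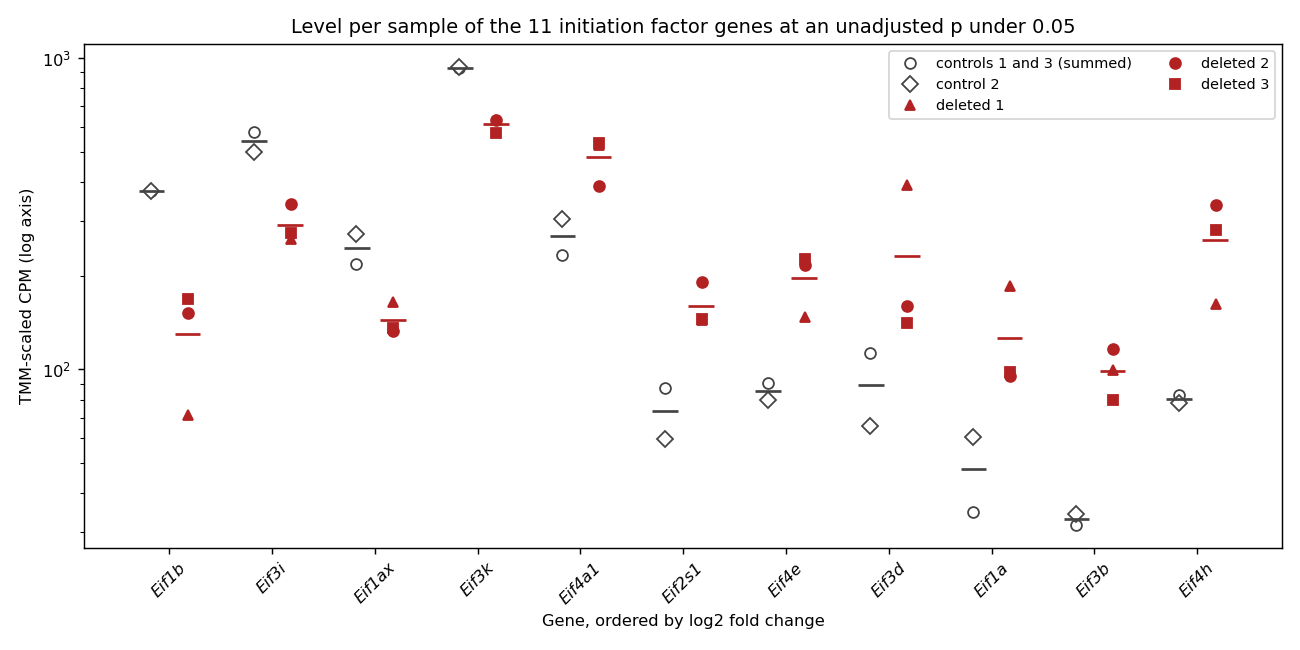
Level in each sample (vertical axis, CPM scaled by TMM, log axis) of the 11 factors at an unadjusted edgeR p under 0.05, ordered by fold change along the horizontal axis, with lines at the group means. In all 11 the control (open grey) and deleted (red) samples do not overlap, from Eif1b at 375 against 71.5 to 168 CPM to Eif4h at 78.1 and 82.8 against 163 to 338 CPM.

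With all samples in, the late factors held no difference beyond their spread. Without deleted 1 DESeq2 called Eif5b lower, with a log2 fold change of -0.86 and a DESeq2 adjusted p of 0.0115. Eif5, the GTPase activator of eIF2, stood at 589 and 817 CPM against 923, 536 and 417, and Eif5b, which joins the subunits, at 193 and 251 against 436, 123 and 130. In both, deleted 1 lay above and the other deleted libraries below both controls, and the edgeR adjusted p values were 0.961 and 0.995. Eif5a stood at 2818 and 3620 CPM against 3132, 3185 and 2881, inside the range of the controls, with a log2 fold change of -0.07 (SE 0.22). Its paralogue Eif5a2 had 0 to 76 counts in any sample, so no change could be read from it at this depth. Eif6 stood at 454 and 563 against 560, 456 and 359 CPM, with a log2 fold change of -0.15 (SE 0.28) and an edgeR adjusted p of 0.954.

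Eif5a was also the most abundant factor per length in every sample. It stood at 2441 ± 262 (SD, n = 2) in the control samples and 2838 ± 395 (SD, n = 3) in the deleted ones, or 26.8% to 32.4% of the summed per-length level of all factors. After it in the controls came Eif3g, Eif3k and Eif1b, the last at 604 ± 40.8, which does not differ from Eif3k beyond the spread. Per kb of the longest transcript Eif1 took rank 4 in the controls and Eif1b rank 5. In the deleted libraries Eif1b took rank 9, at 267 ± 137. Eif1 followed at 435 ± 32.8 and 416 ± 50.2, Eif4ebp1 at 424 ± 49.1 and 372 ± 25.9, and Eif6 at 340 ± 27.6 and 365 ± 24.5, and neighbours among these do not all differ beyond their spread. At the low end stood Eif2a, Eif4ebp2 and Eif5a2, with control means of 3.29, 3.13 and 0.222.

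Ratios of related genes within a sample do not depend on how the libraries are scaled, though a length trend that differs between libraries moves them. In 10 pairs the log2 ratio of the per-length levels was compared by an exact two-sided permutation test, whose smallest possible p with these 5 samples is 0.1. Eif4e over Eif4e2 was -0.82 and -1.33 in the control samples and 0.15, 1.18 and 0.80 in deleted 1 to 3, all above control. Per kb of the longest transcript these ratios were -1.66 and -2.17 against -0.70, 0.34 and -0.040, so the difference is the same but Eif4e is then the higher of the pair in deleted 2 alone. Eif1 over Eif1b was -0.47 and -0.48 against 1.71, 0.39 and 0.32, and Eif1a over Eif1ax -2.31 and -1.82 against 0.51, -0.15 and -0.14. Per kb of the longest transcript Eif1a over Eif1ax was -1.80 and -1.31 against 1.02, 0.37 and 0.38. Eif1a is then the higher of the pair in every deleted library. The differences of 1.78 for Eif4e/Eif4e2, 1.28 for Eif1/Eif1b and 2.14 for Eif1a/Eif1ax each had the smallest possible exact permutation p, 0.1. After adjustment over the 10 pairs it was 0.333. Eif4e over its inhibitor Eif4ebp1 was -3.76 and -4.33 against -3.12, -2.06 and -2.02, without overlap (exact permutation p = 0.2, adjusted 0.5). With the length trend taken out, the edgeR fold changes of Eif1 and Eif1b differed by 0.55 in place of 1.28, an alternative chosen after seeing the data. The other 6 pairs overlapped, among them Eif4a1 over Eif4a2, with a difference of 0.04, and Eif4g1 over Eif4g2, with -0.03 (exact permutation p = 1 for each).

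**Figure D5:**
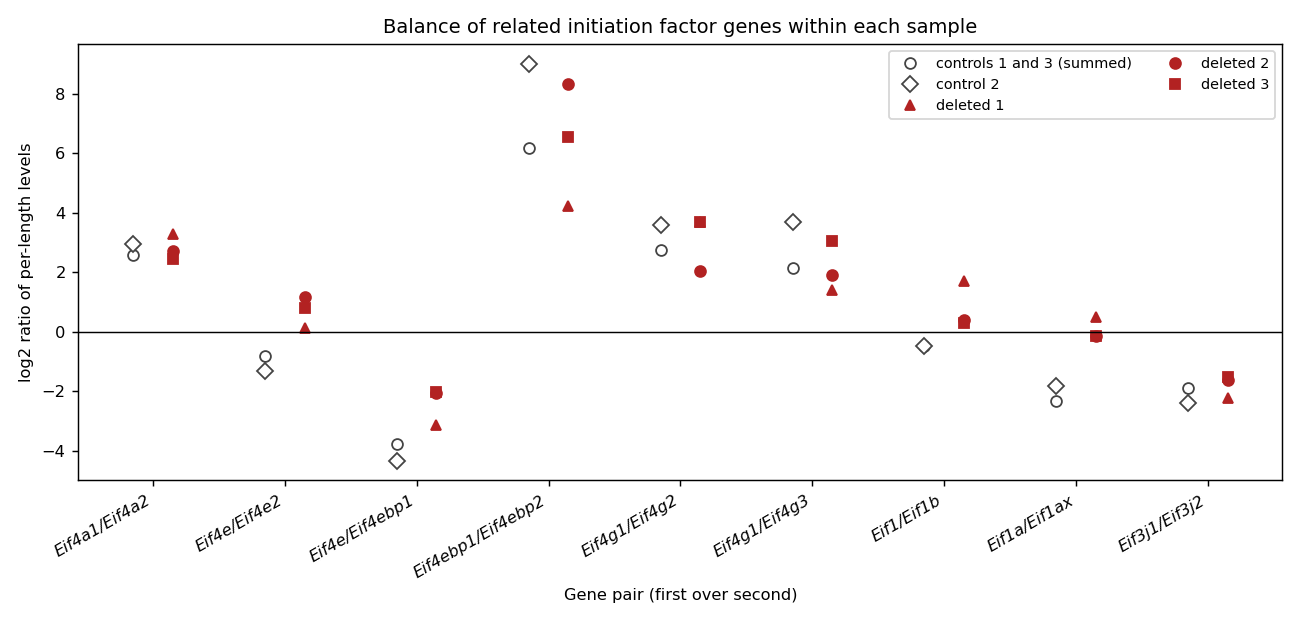
Log2 ratio of per-length levels (vertical axis) of 9 pairs of related factors (horizontal axis, first gene over second) in the 2 control samples (open grey) and the 3 deleted libraries (red). The pairs Eif4e/Eif4e2, Eif4e/Eif4ebp1, Eif1/Eif1b and Eif1a/Eif1ax do not overlap between groups, and the pair Eif5a/Eif5a2 is left out because Eif5a2 had 0 counts in deleted 1.

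Gene length moved with the fold change among the factors. Over 48 factors Spearman's rho between merged exon length and log2 fold change was 0.26, given as a description since the genes share the same libraries, and over 12328 genes it was 0.02. The 24 shorter factors, up to the median of 4251 bases, had a median log2 fold change of -0.09 with 10 above control, and the 24 longer ones 0.80 with 18 above control. The eIF1 genes, with a median of 2792 bases, were shorter than the eIF2 genes, with 4951. Median lengths were 3428 bases for eIF3, 5551 for eIF4 and 5924 for eIF5, whose median log2 fold change was -0.01. Eif2b1, Eif2b4 and Eif2b5, of 2581 to 2599 bases, lay above control at 0.86, 0.43 and 0.89. Eif2b2, of 1885 bases, lay below it at -0.55. With the length trend of each library taken out, 11 factors stood at an unadjusted p under 0.05 by edgeR (9.38% of all genes), of which 10 were the same, with Eif1b left out and Eif3e added, and 8 of 9 eIF2 genes lay above control.

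The promoters of these factors, from 250 bases before to 50 after the annotated start in RefSeq (GRCm38.p6), were read for 37 of the 49 genes with a match. The palindrome CACGTG, the E-box bound by MYC and its relatives, was present in 10 of 37 (27.0%), against 11.7% of the 9737 genes tested that have a promoter there. Of the 11 factors at an unadjusted p under 0.05, 5 hold it, 2 with lower and 3 with higher levels. Windows of 30 bases are shown for those 5, 5′ to 3′ on the gene's strand, with the E-box in capitals, because genes lying in opposite directions share it.
Eif1b, chr9:120492570-120492599, plus strand: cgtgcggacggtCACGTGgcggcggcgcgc
Eif3k, chr7:28981915-28981944, minus strand: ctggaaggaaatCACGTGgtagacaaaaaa
Eif4a1, chr11:69672595-69672624, minus strand: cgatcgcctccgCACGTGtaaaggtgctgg
Eif4e, chr3:138527192-138527221, plus strand: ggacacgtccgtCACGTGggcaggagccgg
Eif4h, chr5:134639488-134639517, minus strand: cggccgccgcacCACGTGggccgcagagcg

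The E-box starts 24 bases before the annotated start in Eif1b, 44 before it in Eif3k, 189 in Eif4a1, 64 in Eif4e, which has another 228 bases before, and 96 in Eif4h. The windows of Eif1b and Eif4e lie inside the gene spans given above, so the starts used for them are not the outermost annotated ones. Eif5a, the most abundant factor, has an E-box as well. The stretch shown for Eif5a also lies inside its gene span, chr11:69916714-69921958. Stretches of 150 bases before the start of Eif3k and Eif5a are shown with the E-box in capitals, as examples of a factor with lower and a factor with like levels in the groups.
Eif3k, chr7:28981889-28982038, minus strand: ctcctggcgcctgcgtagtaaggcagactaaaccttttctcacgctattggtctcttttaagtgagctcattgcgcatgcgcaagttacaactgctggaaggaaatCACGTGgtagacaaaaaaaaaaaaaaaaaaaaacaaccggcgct
Eif5a, chr11:69921387-69921536, minus strand: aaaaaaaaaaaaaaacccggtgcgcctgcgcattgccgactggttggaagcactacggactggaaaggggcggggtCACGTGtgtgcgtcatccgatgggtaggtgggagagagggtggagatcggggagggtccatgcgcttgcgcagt

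Other words were searched in the same windows, on both strands as for the E-box. CCGGAAG, the core of ETS factor sites, was present in 15 of 37 promoters (40.5%, against 20.4% of tested genes), and the cAMP response element in 0 of 37 (against 3.46%). The NRF1 palindrome was present in Eif3k alone, 1 of 37 (2.70%, against 2.30%). A match describes the letters of the promoter and says nothing of binding in these cells.

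Rbfox2 binds the RNA word UGCAUG, written TGCATG in DNA. The word was present on the sense strand of the longest coding transcript (GENCODE, mm10) of 27 of 48 tested factors (56.2%), against 54.3% of 11846 tested genes, and at 0.273 against 0.283 copies per kb. The factors are not set apart by it, and introns, where Rbfox proteins act on splicing, were not searched. Both members of the helicase pair and of a scaffold pair hold it in a coding exon, and these sites are shown with the word in capitals.
Eif4a1, exon 8, chr11:69668210-69668239, minus strand: tcaccgagaagaTGCATGcccgagatttca
Eif4a2, exon 8, chr16:23111220-23111249, plus strand: tcacggagaaaaTGCATGccagggacttca
Eif4g1, exon 17, chr16:20683533-20683562, plus strand: cagaagcaataaTGCATGactgtgtggtca
Eif4g3, exon 19, chr4:138171170-138171199, plus strand: cggaggccatcaTGCATGactgtgtggtga

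Of the 11 factors at an unadjusted p under 0.05, Eif1b, Eif1ax, Eif2s1, Eif4e and Eif4h carry the word in the 3′ UTR, and Eif3d and Eif4a1 in coding sequence. Both directions are again represented. Sites of a factor with lower and a factor with higher levels are shown.
Eif1b, exon 4, 3′ UTR, chr9:120495078-120495107, plus strand: tccactcacaccTGCATGgctacagaaaac
Eif4h, exon 7, 3′ UTR, chr5:134621360-134621389, minus strand: agagcttgtgagTGCATGtcagctgttaac

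Partners of the factors were read from lists of initiation regulators and of elongation and termination genes. Of 46 tested regulators 25 lay above and 21 below control, with a median of 0.25, and edgeR called 0 while DESeq2 called 1, beside 3.39% of all genes. At an unadjusted p under 0.05 by edgeR stood 3 of them, or 6.52%, against 9.89% of all genes. In 39.1% of them the groups did not overlap, 5 higher and 13 lower, against 14.9% and 17.2% of all genes. Ppp1r15a, which directs the phosphatase of eIF2, stood at 47.2 and 45.2 CPM in the control samples and at 78.6, 130 and 148 in deleted 1 to 3. Bzw1, a mimic of eIF5, stood at 124 and 99.9 against 21.0, 45.4 and 52.5 CPM, and Paip1, a partner of the poly(A)-binding protein, at 49.6 and 57.8 against 173, 91.5 and 113. None of these groups overlapped, and the edgeR adjusted p values were 0.410, 0.443 and 0.445. The DESeq2 call was Pabpc4, a poly(A)-binding protein, which stood at 0.837 and 1.35 CPM against 4.70, 7.55 and 6.48 (adjusted p = 0.0023 by DESeq2, 0.660 by edgeR).

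Of the 4 kinases that act on eIF2, Eif2ak2, which is activated by double-stranded RNA, was the most abundant in these counts. It stood at 61.5 and 58.0 CPM in the control samples and at 101, 38.7 and 22.3 in deleted 1 to 3, with deleted 1 above and the others below both controls, and a log2 fold change of -0.15 (SE 0.72). The other kinases stood at 11.4 CPM or less in every sample. Eif2ak1, the heme-regulated kinase, stood at 5.37 and 2.85 CPM against 1.97, 6.80 and 9.83, and Eif2ak4, the sensor of amino acid shortage, at 11.4 and 3.58 against 0.809, 3.32 and 2.75. Eif2ak3, the kinase of the endoplasmic reticulum, was at 1.04 and 0.312 CPM in the control samples, at 5.14 in deleted 2 and at 0 in deleted 1 and deleted 3. None passed the test by edgeR or DESeq2.

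The list of elongation and termination genes, 23 in all, includes the mitochondrial initiation factors Mtif2 and Mtif3. Both lay below control, with log2 fold changes of -1.58 and -0.18. Of the 23 genes 13 lay above and 10 below control, with a median of 0.37. edgeR and DESeq2 called 0, beside 3.39% of all genes by DESeq2. At an unadjusted p under 0.05 by edgeR stood 3, or 13.0%, close to the 13.7% of genes with a mean of at least 10 CPM and against 9.89% of all genes. The groups did not overlap in 56.5% of them, 10 higher and 3 lower (Mtif2 among the 3). For all genes this share was 32.0% (14.9% higher and 17.2% lower). Among genes with a mean of at least 10 CPM this share was 39.1%. Eef1b2, the exchange factor of eEF1A, stood at 672 and 733 CPM against 287, 433 and 471. Eef2, the translocase, stood at 189 and 161 against 334, 268 and 291, and Tufm, the mitochondrial elongation factor, at 69.5 and 69.0 against 178, 137 and 113. Their groups did not overlap, and the edgeR adjusted p values were 0.436, 0.440 and 0.443.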

How the data were processed

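The deposited values were raw counts of reads per gene in 6 libraries, keyed by Ensembl identifier. Per the submitters' processing notes, the authors used Trimmomatic 0.39, featureCounts and DESeq2 1.36.0, and the build was mm10. How reads were aligned, which annotation was used and whether strand was used is not stated. Of 23043 rows, 134 shared 60 identifiers and were summed. Symbols were found for 22839 of 22969 identifiers. Every library had a group in the labels, which name separate mice, but the p-values speak only to how far these 5 samples vary, which may be technical.

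The counts went into edgeR 4.0.16 (R 4.3.3). Genes were kept by filterByExpr (minimum count 10, minimum total 15), scaled by TMM and fitted by the quasi-likelihood functions, with group alone in the design. Tests were two-sided, and p was adjusted by Benjamini-Hochberg over 12350 genes at 0.05. SE was derived from the fold change and F. The alternatives were DESeq2 1.42.0, limma 3.58.1 (voom), other scalings and filters, a length correction, the presence of Xist as a covariate, a replicate block and leaving out libraries. DESeq2 without each library and the length correction for pairs were chosen after seeing the data. The scripts were tested on simulated counts. Ratios of paralogues had 0.5 counts added.

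Values in each sample are given for the 3 factors of each group with the smallest p, any factor called, a list of core factors, the pairs compared, up to 3 genes per partner list and the eIF2 kinases. Further factors were named after their values were seen. The members, lists and pairs were chosen with earlier results of these data known. The sum of a further marker list is not reported here.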

Additional observations from a re-analysis of the deposited data

How the results depend on the processing

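Of the 48 factors tested, 30 kept the direction of their log2 fold change in all 18 alternatives, among them the 11 at an unadjusted p under 0.05, and 52 of 863 values turned sign in the other 18 factors. edgeR and limma-voom called 0 genes in every alternative, with 371 to 2924 genes at an unadjusted p under 0.05, while DESeq2 called 478 genes and 1 factor, Eif3b. Where a value turned sign the cause was not tested, except that leaving out libraries uses fewer samples.

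With 6 separate libraries Eif5a turned to 0.0055, and with size factors of the RLE method Eif3m turned to 0.0030. Under limma-voom the medians were -0.015 for all factors, -0.015 for eIF3 and 0.044 for eIF4, and Eif3f (-0.017), Eif3g (-0.017), Eif4ebp2 (-0.20), Eif5a2 (-0.15) and Eif5b (-0.31) turned. Under upper-quartile scaling the medians were -0.089 for all factors, -0.68 for eIF1, 0.60 for eIF2, -0.27 for eIF3, 0.10 for eIF4, -0.41 for eIF5 and -0.52 for eIF6, and Eif3f (-0.24), Eif3g (-0.30), Eif3j2 (-0.049), Eif4g3 (-0.13) and Eif5b (-0.40) turned. Without a filter on low counts the eIF3 median was -0.067, and Eif3f (-0.037), Eif3g (-0.097) and Eif5b (-0.15) turned. With the length correction Eif3f (-0.043), Eif3h (0.13), Eif4ebp3 (0.35) and Eif5 (0.062) turned. With the presence of Xist as a covariate, where the group difference rests on deleted 2, the medians were -0.012 for all factors, 0.55 for eIF2, -0.039 for eIF3 and 0.075 for eIF4. There Eif2s2 (-0.070), Eif3f (-0.099), Eif3g (-0.0084), Eif4ebp2 (-1.85), Eif4enif1 (-0.54), Eif4g2 (0.25) and Eif5b (-0.85) turned. With 5 counts added the difference of Eif5a over Eif5a2 was -0.83. With the length correction, added for the pairs after seeing the data, it was -1.25 and that of Eif4a1 over Eif4a2 -0.11.

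Leaving out each library in turn, the medians ran from -0.055 to 0.33 for all factors, -0.79 to -0.30 for eIF1, -0.051 to 0.19 for eIF3, -0.0091 to 0.46 for eIF4 and -0.34 to 0.19 for eIF5. Values that turned ran from -0.79 to 0.17 for Eif1ad, -0.19 to 1.74 for Eif2b3, -0.22 to 0.32 for Eif3f, -0.23 to 0.28 for Eif3g, -0.21 to 0.12 for Eif3m, -0.68 to 1.94 for Eif4ebp2, -0.11 to 0.46 for Eif4g3, -0.58 to 0.091 for Eif5, -0.12 to 0.13 for Eif5a, -0.83 to 0.33 for Eif5b and -0.34 to 0.018 for Eif6. Differences in log2 ratio ran from -0.20 to 0.22 for Eif4a1/Eif4a2, -2.21 to 0.20 for Eif4ebp1/Eif4ebp2, -0.31 to 0.52 for Eif4g1/Eif4g2 and -1.93 to 1.25 for Eif5a/Eif5a2. Without the pooled control Eif3g (-0.037), Eif3h (0.088), Eif3m (0.049), Eif5b (-0.165) and Eif4a1/Eif4a2 (-0.14) turned; in these fits and those without control 2 the lone control sample is assumed to vary like the deleted ones. The 4 pairs that did not overlap kept their sign with 5 counts added, by longest transcript, without each library and with the length correction, from 0.55 (length correction) to 1.52 for Eif1/Eif1b, 1.90 to 2.39 for Eif1a/Eif1ax and 1.53 to 2.07 for Eif4e/Eif4e2.

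Samples share replicate numbers across groups, and the deviations of same-numbered samples correlated at -0.042, -0.0089 and 0.049. The libraries summed as the pooled control were much closer to each other than any other pair. This check could therefore hardly tell their replicate numbers apart, and whether the numbers pair the samples was not settled. With a replicate block edgeR called 0 genes, the eIF3 median was 0.054, and Eif5a (0.016) and Eif5b (-0.15) turned; with the block and the length correction Eif3f (-0.15), Eif3h (0.034) and Eif5 (0.096) turned.

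Depth was lowest in deleted 1, and 2 factors had a sample under 10 counts. Counts without molecular identifiers are not independent molecules, and 19 factors have exons that overlap another gene, 11 of them on the other strand.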
